A study of Mus musculus with 24 samples.

Results

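The genes followed here are 44 genes of the autophagy machinery and of the regulators of TFEB, the transcription factor that governs lysosomal and autophagy genes. The rule was a list of names by known function, with no threshold on a measured value, and the list was drawn up with earlier results of these data known. Of the 44, 43 had a row in all of the 8 count tables used, among 12759 transcripts listed in at least 1 of them, and each was represented by 1 transcript. Tfeb itself was not analysed here. All 43 passed the filter on low counts (over 1 CPM, counts scaled to a common library total, in every library of at least 1 condition) in every comparison. They fall into the ULK1 complex (5 genes), the class III PI3K complexes with Ambra1 (6), the ATG9, ATG2 and WIPI group with Vmp1 (6), the conjugation enzymes with the ATG4 proteases (10), the ATG8 proteins (5), the autophagy receptors (7), and TFE3 with the folliculin complex (4 with values).

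The cells were N2a, a mouse neuroblastoma line. Both genotypes had been transfected with the Cas9 plasmid pSpCas9(BB)-Puro and selected with puromycin in repeated rounds. The vector was empty for the ctrl cells (labelled WT) and carried guides to 3 exons of Eif4e3 for the KO cells, which came from the cells that survived selection. Isolation of a single clone is not mentioned in the sources used here. Cells of each genotype received DMSO or 250 nM Torin1, an inhibitor of the mTOR kinase, for 2 h in medium without pyruvate, which gave the 4 conditions ctrl DMSO, ctrl Torin1, KO DMSO and KO Torin1. Each condition had 3 RNA-seq libraries and 3 ribo-seq libraries from different passages, except that 2 ribo-seq libraries of ctrl DMSO were used (replicates 1 and 3).

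RNA-seq totals ran from 17048192 to 28911595 counts per library. Ribo-seq totals ran from 669244, in ctrl DMSO replicate 3, to 5285876. Eif4e3 mRNA was at 18.2, 12.0 and 18.2 CPM in ctrl DMSO and at 3.67, 2.89 and 5.00 CPM in KO DMSO, and it was lower in KO cells by a log2 fold change of -2.05 (SE 0.24, adjusted p = 0.031) in DMSO and -1.63 (SE 0.14, adjusted p = 0.0001) in Torin1. Of 16 neuroblastoma and sympathetic neuron markers, 13 had values, with a summed level of 3928 to 4741 CPM in ctrl DMSO, 3680 to 3796 CPM in ctrl Torin1, 3969 to 4730 CPM in KO DMSO and 3771 to 3960 CPM in KO Torin1. The sum was lower in every Torin1 library than in every DMSO library of its genotype, and its part in the Torin1 results was not tested. Of 9 markers of other cell types, Dcn and Pecam1 had values, summing to 2.40 to 4.69 CPM.

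Macroautophagy encloses cytoplasm in a double membrane that fuses with the lysosome. The ULK1 kinase complex starts it, the class III PI3K complex makes the lipid that marks the forming membrane, ATG9 and ATG2 bring lipid to it, and the conjugation enzymes attach ATG8 proteins, which receptors such as SQSTM1 bind together with their cargo. When active, mTORC1 phosphorylates ULK1 and ATG13 and keeps TFEB and TFE3 in the cytoplasm. The folliculin complex (FLCN with FNIP1 or FNIP2) acts at the lysosome in that nutrient signal. Torin1 blocks this kinase, and it also acts on translation, through the eIF4E-binding proteins.

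The first comparison asked how Torin1 changed the mRNA of these genes within each genotype. In ctrl cells 6 of 43 members (14.0%) rose and none fell (Flcn, Fnip1, Atg14, Atg13, Calcoco1 and Gabarapl1), where 2.73% of 10958 transcripts passed the test (2.05% higher, 0.675% lower). In KO cells 15 members (34.9%) rose and none fell, where 9.97% of 11004 transcripts passed (6.23% higher, 3.74% lower). The same 6 were among the 15, together with Nbr1, Atg2a, Ulk1, Optn, Pik3c3, Wipi1, Sqstm1, Rb1cc1 and Tax1bp1. The median log2 fold change of the members was 0.12 in ctrl and 0.14 in KO cells, against 0.00 and 0.00 over all transcripts. edgeR's test of the genotype by treatment interaction called 0 of 43 members and 0 of 11073 transcripts (0%), as did DESeq2. An unadjusted p under 0.05 was reached by 0 members and by 108 of the 11073 transcripts. With so few over all transcripts, 0 members is not a result about this list. The counts in ctrl and KO cells are not shown to differ by genotype. The mRNA values are per RNA counted in the library, and in bulk samples fewer cells of a kind and less RNA per cell cannot be told apart. The ctrl count depended on single libraries, as did the calls over all transcripts. It was 1 without ctrl DMSO replicate 1 (146 of 10980 transcripts called) and 11 without ctrl DMSO replicate 3 (1465 of 10988). In the latter library Nbr1 stood apart, as described with the receptors, and Nbr1 was 1 of the 11. The count was 1, 3 and 2 without ctrl Torin1 replicates 1, 2 and 3 (116 of 11023, 114 of 10984 and 135 of 11004 transcripts). With the passage as a block 11 members passed in ctrl cells, 10 higher (Wipi1, Ulk1, Rb1cc1 and Fnip2 in addition) and 1 lower (Atg4d, log2 fold change -0.43, adjusted p = 0.0498). The blocked fit called 1328 of 10958 transcripts (978 higher, 350 lower). The KO count was 9 without KO Torin1 replicate 2 (438 of 11021 transcripts called).

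**Figure D1:**
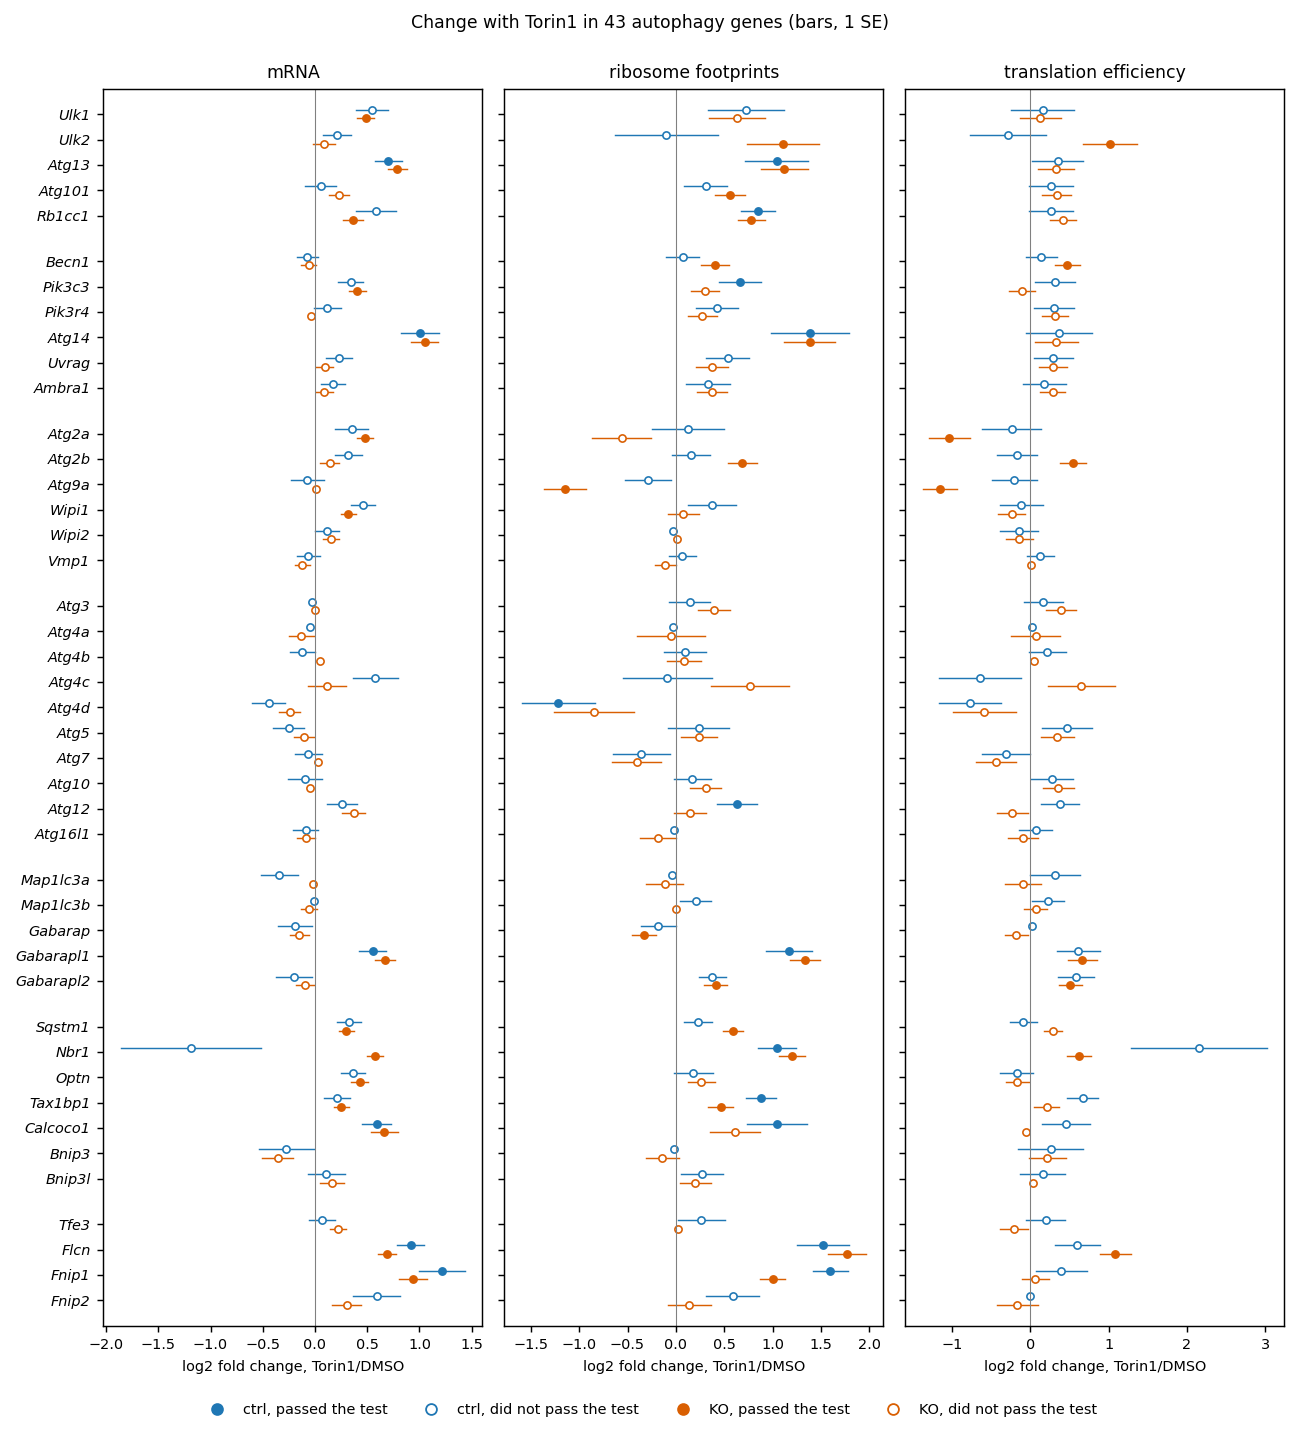
Log2 fold change (x axis, Torin1 over DMSO) of mRNA, footprints and translation efficiency for the 43 members, grouped by role on the y axis, in ctrl (blue) and KO cells (orange); filled points passed the test, bars are 1 SE and are left out where the change was under 0.05 in size. Flcn, Fnip1, Atg13, Atg14 and Gabarapl1 are filled in both genotypes for mRNA and footprints, no conjugation enzyme is filled for mRNA, and the wide bar of Nbr1 in ctrl cells comes with 1 library described in the text.

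The promoter windows of the members (from 250 bases before to 50 bases after the gene start, RefSeq, build GRCm38.p6) were searched on both strands for 4 motifs. Of the 44 genes 37 had an entry (46 windows) and Rb1cc1, Becn1, Pik3c3, Atg12, Atg16l1, Map1lc3a and Bnip3l had none. The full CLEAR motif bound by TFEB and TFE3 (a palindrome of 10 bases), a FoxO motif (TGTTTAC) and an ATF4 motif (TTGCATCA) were found in 0 member windows, and in 0.326%, 3.65% and 0.895% of all 32851 windows. The core of the CLEAR motif, CACGTG, which is its own reverse complement and lies within the longer motif, was found in 6 of 46 member windows (13.0%), of 6 members, and in 7.15% of all windows. The 7 matches are shown as the sites of the core among the members. Fnip1, whose printed stretch starts 107 nt upstream of the counted transcript, rose in mRNA in both genotypes. The mRNA of Atg3, Atg5 and Bnip3, with printed stretches that start 39 to 120 nt upstream, passed no test. The RefSeq starts of Atg14 and Atg7 differ from those of the counted transcripts, and their printed stretches start 2.20 kb and 27.9 kb inside these. Each match is given 5′ to 3′ on the strand of its gene, with the core in capitals.
Fnip1: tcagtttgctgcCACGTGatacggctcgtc
Atg14: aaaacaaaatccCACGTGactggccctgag
Atg3, first match: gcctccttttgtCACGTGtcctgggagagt
Atg3, second match: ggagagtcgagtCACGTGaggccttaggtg
Atg5: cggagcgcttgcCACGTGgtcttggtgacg
Atg7: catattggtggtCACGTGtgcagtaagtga
Bnip3: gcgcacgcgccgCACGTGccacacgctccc
The printed stretches lie at chr11:54438092-54438121 (plus strand) for Fnip1, chr14:47568418-47568447 (minus) for Atg14, chr16:45158723-45158752 and chr16:45158746-45158775 (plus) for Atg3, chr10:44268313-44268342 (plus) for Atg5, chr6:114670952-114670981 (plus) for Atg7, and chr7:138909597-138909626 (minus) for Bnip3. A match is a match of letters in this window, and no binding was measured.

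The folliculin complex held the members with the largest rises in footprints, Fnip1 in ctrl and Flcn in KO cells. Flcn, the GTPase-activating subunit, has its counted transcript at chr11:59791408-59810016 (mm10, minus strand, 13 exons). Flcn mRNA was at 29.2, 36.6 and 33.7 CPM in ctrl DMSO, 66.6, 59.0 and 61.6 CPM in ctrl Torin1, 28.8, 32.6 and 34.1 CPM in KO DMSO, and 51.0, 53.1 and 49.5 CPM in KO Torin1. Every Torin1 library was above every DMSO library in both genotypes. The log2 fold change of Flcn mRNA was 0.92 in ctrl (SE 0.13, adjusted p = 0.0024) and 0.69 in KO cells (SE 0.09, adjusted p = 0.0005), and its call in ctrl cells was the only one of the 6 that passed in every fit that left out 1 library. Flcn footprints, the ribosome-protected fragments on its coding sequence, were at 14.1 and 9.71 CPM in ctrl DMSO, 45.6, 33.3 and 36.3 CPM in ctrl Torin1, 11.1, 10.9 and 14.2 CPM in KO DMSO, and 43.6, 42.6 and 37.1 CPM in KO Torin1. They rose 2.86-fold in ctrl (log2 1.52, SE 0.27, adjusted p = 0.00064) and 3.41-fold in KO cells (log2 1.77, SE 0.20, adjusted p = 7.3e-09). The rise of the footprints exceeded that of the mRNA in KO cells, with a log2 change in translation efficiency (TE, footprints per mRNA) of 1.09 (SE 0.20, adjusted p = 0.00016). In ctrl cells the TE change was 0.60 (SE 0.28, adjusted p = 0.30) and did not pass.

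Fnip1 (chr11:54438199-54518235, plus strand, 18 exons) encodes a partner of folliculin. Its mRNA was at 38.2, 20.6 and 44.3 CPM in ctrl DMSO, 86.6, 76.2 and 75.6 CPM in ctrl Torin1, 43.6, 31.7 and 50.2 CPM in KO DMSO, and 81.3, 81.7 and 77.1 CPM in KO Torin1. The Torin1 libraries did not overlap with the DMSO libraries, which were themselves spread, replicate 2 being the lowest in both genotypes. Fnip1 mRNA rose by a log2 fold change of 1.21 in ctrl (SE 0.22, adjusted p = 0.014) and 0.94 in KO cells (SE 0.13, adjusted p = 0.001). The ctrl call was lost without ctrl DMSO replicate 1 or ctrl Torin1 replicate 1, within a range of 0.95 to 1.44. Fnip1 footprints were at 55.4 and 46.9 CPM in ctrl DMSO, 145, 184 and 150 CPM in ctrl Torin1, 69.9, 74.9 and 88.5 CPM in KO DMSO, and 163, 159 and 151 CPM in KO Torin1. They rose 3.02-fold in ctrl (adjusted p = 3.3e-06) and 2.00-fold in KO cells (adjusted p = 7.4e-08). The TE change was 0.39 in ctrl and 0.06 in KO cells, neither passing the test.

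Fnip2, the second partner, had log2 mRNA changes of 0.59 in ctrl (adjusted p = 0.16) and 0.30 in KO cells (adjusted p = 0.18), and passed with the passage as a block in both (0.66, adjusted p = 0.0056, and 0.33, adjusted p = 0.041). Tfe3, which encodes the TFEB relative that binds the same DNA motif (chrX:7762658-7775202), passed no Torin1 comparison. Its mRNA was at 44.6, 48.5 and 54.3 CPM in ctrl DMSO, 51.7, 50.3 and 52.2 CPM in ctrl Torin1, 51.3, 50.4 and 49.2 CPM in KO DMSO, and 60.6, 57.0 and 57.8 CPM in KO Torin1. The KO Torin1 libraries were the highest of the 4 conditions, but the change in KO cells was 0.22 (SE 0.07, adjusted p = 0.08). Tfe3 footprints lay between 21.0 and 33.5 CPM in all 11 libraries.

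**Figure D2:**
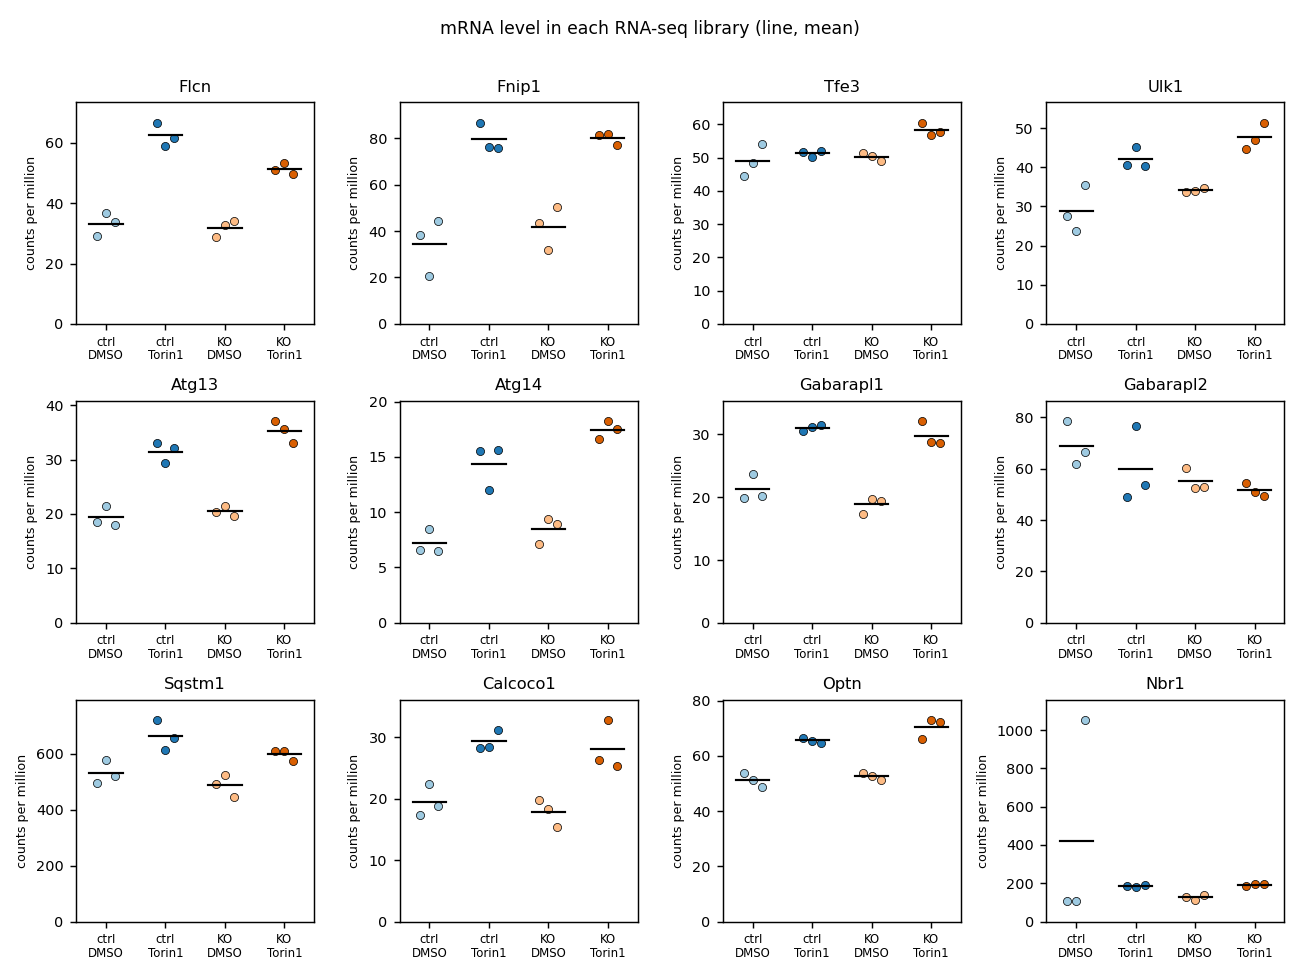
mRNA level (y axis, CPM, from 0) of 12 members in each of the 12 RNA-seq libraries, by condition on the x axis; points are libraries and lines are means. Flcn, Fnip1, Atg13, Atg14 and Gabarapl1 show no overlap between DMSO and Torin1 libraries, Tfe3 and Gabarapl2 do in ctrl cells, and Nbr1 has 1 ctrl DMSO library at 1052 CPM.

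In the ULK1 complex, Atg13, the subunit that links the kinase to its scaffold, moved most. Atg13 mRNA (chr2:91674618-91710576, minus strand, 16 exons) was at 18.6, 21.5 and 18.1 CPM in ctrl DMSO, 33.1, 29.3 and 32.0 CPM in ctrl Torin1, 20.4, 21.4 and 19.6 CPM in KO DMSO, and 37.0, 35.6 and 33.0 CPM in KO Torin1. The groups did not overlap, and the rise was 1.63-fold in ctrl (adjusted p = 0.016) and 1.73-fold in KO cells (adjusted p = 0.00025), the smallest adjusted p of any member in the KO mRNA comparison. The ctrl call for Atg13 mRNA was lost when ctrl DMSO replicate 1 or any 1 of the ctrl Torin1 libraries was left out (log2 0.66 to 0.78). Atg13 footprints were at 10.3 and 11.3 CPM in ctrl DMSO, 15.2, 26.8 and 21.6 CPM in ctrl Torin1, 11.1, 10.7 and 9.37 CPM in KO DMSO, and 22.5, 17.7 and 29.1 CPM in KO Torin1. They rose by a log2 fold change of 1.04 in ctrl (SE 0.32, adjusted p = 0.036, but 0.69 and adjusted p = 0.23 with the passage as a block, and lost without ctrl DMSO replicate 1 or ctrl Torin1 replicates 2 or 3) and 1.12 in KO cells (SE 0.24, adjusted p = 0.00032).

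Ulk1, the kinase itself (chr5:110784488-110810097, minus strand, 28 exons), had mRNA at 27.6, 23.7 and 35.4 CPM in ctrl DMSO, 40.6, 45.1 and 40.4 CPM in ctrl Torin1, 33.8, 33.9 and 34.7 CPM in KO DMSO, and 44.6, 46.9 and 51.4 CPM in KO Torin1. All Torin1 libraries were above all DMSO libraries of their genotype. The log2 fold change was 0.54 in ctrl (SE 0.15, adjusted p = 0.08, but adjusted p = 0.0094 with the passage as a block) and 0.48 in KO cells (SE 0.08, adjusted p = 0.0042). Ulk1 footprints were few, from 1 to 51 counts per library, and at 10.5 and 1.62 CPM in ctrl DMSO, 12.3, 15.7 and 14.8 CPM in ctrl Torin1, 5.53, 10.7 and 7.29 CPM in KO DMSO, and 14.5, 13.9 and 9.71 CPM in KO Torin1. Their changes, 0.73 in ctrl and 0.63 in KO cells, did not pass (adjusted p = 0.23 and 0.082).

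Rb1cc1, the FIP200 scaffold, rose in footprints in both genotypes (0.85 and 0.78, adjusted p = 0.0027 and 3.5e-05), and in mRNA passed in KO cells (0.36, adjusted p = 0.032) but not in ctrl cells (0.58, adjusted p = 0.12, and 0.00504 with the passage as a block). Its ctrl footprint call was lost without ctrl DMSO replicate 1, and its KO mRNA call without KO DMSO replicate 1 or any KO Torin1 library (0.27 to 0.45). Atg101, which stabilises ATG13, rose in KO footprints alone of its 4 Torin1 tests of mRNA and footprints (0.56, adjusted p = 0.0046, lost without KO Torin1 replicate 2). Ulk2, the second kinase, is described with the comparison of genotypes. Of the 5 genes of this complex, 1 rose in mRNA and 2 in footprints in ctrl cells, and 3 rose in mRNA and 4 in footprints in KO cells. The shares of all transcripts that rose were 2.05% and 5.69% in ctrl and 6.23% and 18.5% in KO cells.

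Of the class III PI3K group, Atg14, which directs the kinase to the site of autophagosome formation, stood out by size (chr14:47540893-47570649, minus strand, 11 exons). Its mRNA was at 6.56, 8.49 and 6.53 CPM in ctrl DMSO, 15.6, 12.0 and 15.6 CPM in ctrl Torin1, 7.11, 9.39 and 8.95 CPM in KO DMSO, and 16.6, 18.2 and 17.6 CPM in KO Torin1. It rose 2.01-fold in ctrl (adjusted p = 0.012) and 2.07-fold in KO cells (adjusted p = 0.00039), with no overlap between groups in either. Atg14 footprints were at 5.99 and 3.24 CPM in ctrl DMSO, 19.5, 12.0 and 12.5 CPM in ctrl Torin1, 5.53, 7.12 and 8.33 CPM in KO DMSO, and 17.1 to 20.7 CPM in KO Torin1. They rose by a log2 fold change of 1.39 in ctrl (SE 0.40, adjusted p = 0.025, from 2 counts in the shallowest library) and 1.38 in KO cells (SE 0.26, adjusted p = 7.5e-05). In ctrl cells the mRNA call was lost without ctrl DMSO replicate 1, ctrl Torin1 replicate 1 or ctrl Torin1 replicate 3 (0.94 to 1.14), and the footprint call without the same 3 replicates of ribo-seq (1.15 to 2.15). Pik3c3, the catalytic subunit, rose in ctrl footprints (0.66, adjusted p = 0.042, and 0.0521 with the passage as a block) and KO mRNA (0.41, adjusted p = 0.011), and Becn1, the scaffold of the complex, in KO footprints (0.40, adjusted p = 0.021). The Pik3c3 calls were lost without ctrl DMSO ribo-seq replicate 1 or ctrl Torin1 ribo-seq replicates 2 or 3 (0.29 to 0.81), and without KO DMSO RNA-seq replicate 1 or KO Torin1 RNA-seq replicate 2 (0.36 to 0.46). The Becn1 call was lost without KO DMSO ribo-seq replicate 2 or KO Torin1 ribo-seq replicates 1 or 2 (0.28 to 0.53). Pik3r4, Uvrag and Ambra1 passed no test, with footprint changes of 0.27 to 0.53, although Ambra1 footprints in KO cells had an adjusted p of 0.0403 with the passage as a block.

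Among the membrane and lipid transfer proteins the directions were mixed. In KO cells Atg9a and Atg2a, the lipid scramblase and a lipid transfer protein that work together, had lower TE under Torin1, while Atg2b, the paralog of Atg2a, had higher TE. Atg2a (chr19:6241668-6262335, plus strand, 40 exons) had mRNA at 27.2, 31.9 and 39.5 CPM in ctrl DMSO, 38.3, 48.0 and 39.1 CPM in ctrl Torin1, 30.4, 29.9 and 32.5 CPM in KO DMSO, and 41.8 to 44.4 CPM in KO Torin1. Its footprints were at 11.5 and 6.47 CPM, 14.5, 12.0 and 7.95 CPM, 11.1, 9.21 and 9.37 CPM, and 5.73, 8.14 and 6.29 CPM in the same order. In KO cells its mRNA groups did not overlap in one direction and its footprint groups in the other. Atg2a mRNA rose by 0.48 (SE 0.08, adjusted p = 0.0035), its footprints changed by -0.56 (SE 0.31, adjusted p = 0.15), and its TE fell by 1.03 on the log2 scale (SE 0.26, adjusted p = 0.004). Atg2b rose in KO footprints (0.69, adjusted p = 0.00029) and TE (0.55, adjusted p = 0.017, lost without KO DMSO RNA-seq replicates 1 or 3 or KO Torin1 RNA-seq replicate 2). Wipi1, a reader of the PI3K lipid, rose in KO mRNA (0.32, adjusted p = 0.019, lost without any 1 KO Torin1 library, 0.29 to 0.39) and had 0.46 in ctrl cells (adjusted p = 0.056, and 0.014 with the passage as a block). Wipi2 and Vmp1 passed no test, all 8 of their mRNA and footprint changes with Torin1 lying between -0.12 and 0.15.

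The conjugation enzymes and ATG4 proteases had calls by edgeR in ctrl footprints alone among the Torin1 tests of mRNA and footprints. Of 10 genes, edgeR called 0 in mRNA in either genotype and 0 in KO footprints, where 2.73%, 9.97% and 40.6% of all transcripts were called. An unadjusted p under 0.05 was reached by 2, 2 and 1 of the 10. Over all transcripts it was reached by 2516 of 10958, 2965 of 11004 and 5224 of 10822. DESeq2 called Atg12 in KO mRNA (adjusted p = 0.0399). In ctrl footprints 1 of 10 rose and 1 fell, where 15.6% of all transcripts passed (5.69% higher, 9.93% lower). Atg12, the ubiquitin-like partner of ATG5, rose there (0.63, SE 0.21, adjusted p = 0.047) and Atg4d, a protease that trims ATG8 proteins, fell by 1.22 on the log2 scale (SE 0.38, adjusted p = 0.036). Each of these 2 calls was lost when any 1 of the 5 libraries was left out (0.50 to 1.14 and -1.52 to -1.09), and without scaling beyond library size Atg4d did not pass (adjusted p = 0.067). Atg12 was the member nearest to the threshold in KO mRNA (0.37, adjusted p = 0.052, and 0.033 with the passage as a block). Atg3, Atg4a, Atg4b, Atg4c, Atg5, Atg7, Atg10 and Atg16l1 passed no test in any comparison, although Atg3 footprints in KO cells had an adjusted p of 0.034 with the passage as a block. Their median log2 change with the 2 others was -0.08 in ctrl and -0.02 in KO mRNA.

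The ATG8 proteins, the small ubiquitin-like proteins attached to the membrane, did not move as a family. Gabarapl1 (chr6:129533160-129542346, plus strand, 4 exons) had mRNA at 19.8, 23.7 and 20.3 CPM in ctrl DMSO, 30.6, 31.1 and 31.5 CPM in ctrl Torin1, 17.4, 19.7 and 19.5 CPM in KO DMSO, and 32.1, 28.8 and 28.7 CPM in KO Torin1. It rose 1.46-fold in ctrl (adjusted p = 0.045, lost without ctrl DMSO replicate 1 or any 1 ctrl Torin1 library, log2 0.51 to 0.64) and 1.59-fold in KO cells (adjusted p = 0.0013). Gabarapl1 footprints were at 31.9 and 14.6 CPM in ctrl DMSO, 68.0, 63.8 and 54.5 CPM in ctrl Torin1, 24.9, 31.8 and 30.9 CPM in KO DMSO, and 79.8, 62.3 and 84.6 CPM in KO Torin1. They rose 2.25-fold (adjusted p = 0.0023) and 2.52-fold (adjusted p = 2.7e-08). The ctrl change was 0.96 without ctrl DMSO replicate 3 and 2.09 without ctrl DMSO replicate 1 on the log2 scale. Gabarapl1 TE rose in KO cells by 0.67 (SE 0.18, adjusted p = 0.0083), with 0.62 in ctrl cells (SE 0.27, adjusted p = 0.25).

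Gabarapl2, its paralog, rose in KO footprints (0.41, adjusted p = 0.0062, lost without KO Torin1 replicate 1) and TE (0.51, adjusted p = 0.01) with an mRNA change of -0.10, so it passed in footprints where its mRNA did not. Its ctrl footprint change was 0.38 (adjusted p = 0.082, and 0.0423 with the passage as a block). Gabarap fell in KO footprints by 0.33 on the log2 scale (SE 0.13, adjusted p = 0.038). That call was lost in 5 of 6 fits that left out 1 library, all but KO Torin1 replicate 1 (-0.38 to -0.30), and without scaling beyond library size the change was -0.08 (adjusted p = 0.63). Map1lc3a and Map1lc3b, which encode the LC3 proteins, passed no Torin1 test, their mRNA changes running from -0.34 to -0.01. The genes of this family are separate loci but similar in coding sequence, and reads that match more than 1 of them were not examined here.

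**Figure D3:**
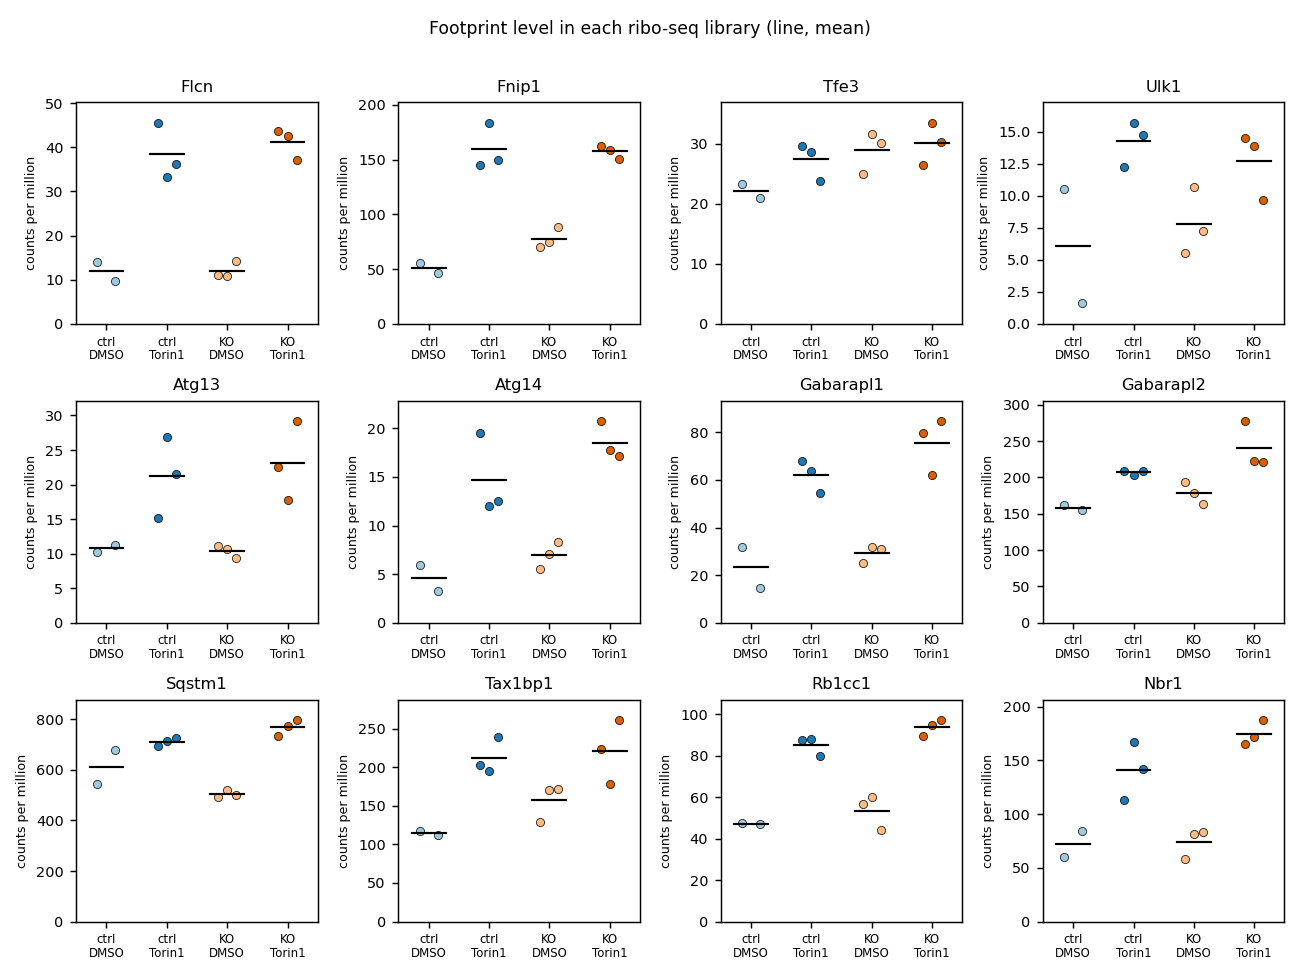
Footprint level (y axis, CPM, from 0) of 12 members in each of the 11 ribo-seq libraries, by condition on the x axis; points are libraries, lines are means, and ctrl DMSO has 2 libraries. Flcn, Fnip1, Atg13, Atg14, Gabarapl1, Tax1bp1, Rb1cc1 and Nbr1 are higher in every Torin1 library than in every DMSO library of their genotype, and Tfe3 is not in KO cells.

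Of the receptors, which tie cargo to ATG8 proteins, 1 of 7 rose in mRNA and 3 in footprints in ctrl cells, and 5 in mRNA and 3 in footprints in KO cells, where 2.05% and 5.69% of all transcripts rose in ctrl and 6.23% and 18.5% in KO cells. Sqstm1, which encodes p62 (chr11:50200152-50210827, minus strand, 8 exons), had mRNA at 495, 579 and 521 CPM in ctrl DMSO, 721, 613 and 656 CPM in ctrl Torin1, 492, 526 and 447 CPM in KO DMSO, and 612, 609 and 574 CPM in KO Torin1. The groups did not overlap. The log2 change was 0.32 in ctrl (SE 0.11, adjusted p = 0.14) and 0.30 in KO cells (SE 0.07, adjusted p = 0.025, lost in 4 of 6 fits that left out 1 library: KO DMSO replicate 1 or any KO Torin1 library). Sqstm1 footprints were at 544 and 678 CPM in ctrl DMSO, 697, 713 and 725 CPM in ctrl Torin1, 491, 519 and 502 CPM in KO DMSO, and 736, 773 and 797 CPM in KO Torin1. They rose in KO cells by 0.59 on the log2 scale (SE 0.10, adjusted p = 2.2e-05), and their ctrl change was 0.23 (SE 0.14, adjusted p = 0.30), or 0.45 (adjusted p = 0.034) without scaling beyond library size.

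Tax1bp1, a ubiquitin-binding receptor (chr6:52713729-52766780, plus strand, 18 exons), had footprints at 117 and 112 CPM in ctrl DMSO, 203, 195 and 239 CPM in ctrl Torin1, 129, 171 and 172 CPM in KO DMSO, and 223, 179 and 261 CPM in KO Torin1. They rose 1.84-fold in ctrl (adjusted p = 0.00064) and 1.38-fold in KO cells (adjusted p = 0.0053, lost without KO Torin1 replicate 3, log2 0.33 to 0.60). Tax1bp1 mRNA was at 143, 104 and 118 CPM in ctrl DMSO, 143, 142 and 137 CPM in ctrl Torin1, 125, 119 and 132 CPM in KO DMSO, and 143, 152 and 152 CPM in KO Torin1. It overlapped in ctrl cells (0.21, adjusted p = 0.31) and rose 1.19-fold in KO cells (adjusted p = 0.038, lost without KO DMSO replicate 1 or any KO Torin1 library). Calcoco1, a receptor for the endoplasmic reticulum, rose in mRNA in both genotypes (0.59 and 0.67, adjusted p = 0.046 and 0.0084) and in ctrl footprints (1.05, adjusted p = 0.029), and Optn in KO mRNA (0.43, adjusted p = 0.0054). The Calcoco1 calls were lost without ctrl DMSO replicate 1 or any ctrl Torin1 library in ctrl mRNA (0.51 to 0.70) and ctrl footprints (0.95 to 1.59), and without KO Torin1 replicate 2 in KO mRNA. Bnip3 and Bnip3l, receptors for mitochondria, passed no test, with mRNA changes of -0.36 to 0.16.

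Nbr1, a receptor related to p62, was decided by 1 library in ctrl cells. Its transcript lies at chr11:101552149-101581951 (plus strand, 24 exons). Nbr1 mRNA was at 107, 105 and 1052 CPM in ctrl DMSO, 184, 180 and 189 CPM in ctrl Torin1, 130, 114 and 140 CPM in KO DMSO, and 183, 194 and 194 CPM in KO Torin1. The third ctrl DMSO library stood above all of the other 11, which did not exceed 194 CPM. With it the log2 change with Torin1 was -1.19 (SE 0.67, adjusted p = 0.30). Without it the change was 0.80 (SE 0.09, adjusted p = 0.0028), which has the sign of the change in KO cells (0.57, SE 0.08, adjusted p = 0.00089). In the same library 7 transcripts, all on chromosome 11 between 101448407 and 101767358, were over 3-fold above every other RNA-seq library at over 20 CPM (CPM by library total, without TMM scaling). They were Ifi35, Rnd2, Nbr1, Tmem106a, Rdm1, Arl4d and Dhx8, at 6.83 to 51.5 times the mean of ctrl DMSO replicates 1 and 2, while the other 55 transcripts within 1 Mb of the start of Nbr1, Becn1 among them, were at 0.417 to 2.02 times that mean. Of these 55, Vat1 (1.13 times) and Brca1 (1.30 times) lie inside the interval, between Ifi35 and Nbr1, so not every transcript there was raised. In all other libraries together 1 transcript met the same criterion. The counts of called members, the medians and the interaction given here include that library. Without it Nbr1 was called in ctrl mRNA, and the values of Nbr1 in ctrl mRNA and TE are given with and without it.

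**Figure D4:**
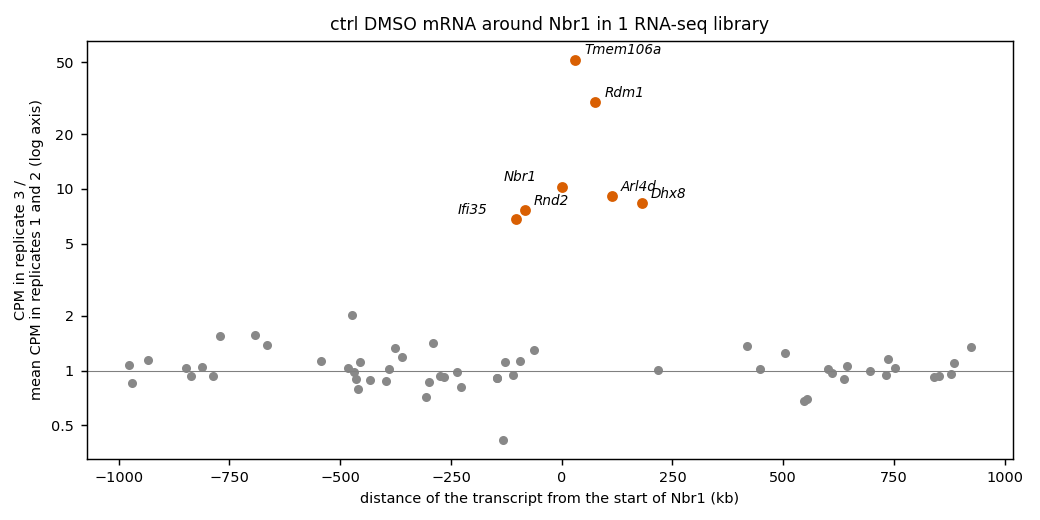
Level in ctrl DMSO RNA-seq replicate 3 over the mean of replicates 1 and 2 (y axis, log scale) for the 62 transcripts with over 1 CPM within 1 Mb of the start of Nbr1, by distance from it in kb (x axis). The 7 named transcripts (orange) are at 6.83 to 51.5 and the other 55 (grey) are between 0.417 and 2.02.

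Nbr1 footprints did not show that rise. They were at 60.4 and 84.1 CPM in ctrl DMSO, the second value being that of replicate 3, 113, 167 and 142 CPM in ctrl Torin1, 58.5, 81.2 and 83.7 CPM in KO DMSO, and 165, 172 and 187 CPM in KO Torin1. They rose 2.07-fold in ctrl (adjusted p = 0.0011, lost without ctrl DMSO ribo-seq replicate 1, log2 0.76 to 1.23) and 2.30-fold in KO cells (adjusted p = 5.2e-09). TE of Nbr1 rose in KO cells by 0.63 (SE 0.15, adjusted p = 0.0033). In ctrl cells its TE change was 2.16 (SE 0.87, adjusted p = 0.20) with the library and 0.27 (SE 0.23, adjusted p = 0.56) without it.

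Across the list, footprints of 11 members (25.6%) rose and 1 (2.33%) fell in ctrl cells, where 15.6% of 10693 transcripts passed (5.69% higher, 9.93% lower). In KO cells 14 (32.6%) rose and 2 (4.65%) fell, where 40.6% of 10822 transcripts passed (18.5% higher, 22.1% lower). The median change of the members was 0.23 in ctrl and 0.30 in KO cells, against 0.02 and 0.02 over all transcripts. All 6 members that rose in ctrl mRNA also rose in ctrl footprints, and 9 of the 15 that rose in KO mRNA rose in KO footprints (9 of the 16 called there). The same overlap was not counted over all transcripts. Footprint counts depend in part on the mRNA level, so the overlap is not shown to be particular to the members. The ctrl footprint count was 7 and 6 without ctrl Torin1 replicates 2 and 3 (871 of 10736 and 845 of 10699 transcripts called). By DESeq2, which gave no adjusted p for Atg14 and Atg4d, it was 6 (956 of 10693). It also fell without ctrl DMSO replicate 1, a fit with 1 library left in that group. Without scaling beyond library size the median of all transcripts shifted to 0.23 in ctrl and 0.27 in KO cells, and 16 members rose and 0 fell in ctrl cells (all transcripts, 1691 higher and 684 lower), and 27 rose and 1 fell in KO cells (3766 higher and 1532 lower). The footprint directions above are therefore relative to the average transcript of each library.

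Translation efficiency separated few members. In ctrl cells 0 of 43 passed by edgeR, where 4.68% of 10432 transcripts passed (0.383% higher, 4.29% lower). An unadjusted p under 0.05 was reached by 5 members and by 1707 of the 10432 transcripts. DESeq2 called 1 member, Tax1bp1, and 551 of 10432 transcripts. In KO cells Flcn, Nbr1, Gabarapl1, Gabarapl2, Atg2b, Becn1 and Ulk2 rose (7, 16.3%) and Atg9a and Atg2a fell (2, 4.65%), where 28.4% of 10535 transcripts passed (10.6% higher, 17.8% lower). The members' share in total, 20.9%, was below that of all transcripts, as it was for KO footprints (37.2% against 40.6%). With the passage as a block Sqstm1 (0.29, adjusted p = 0.0426) and Rb1cc1 (0.41, adjusted p = 0.0401) passed as well, where 3429 of 10535 transcripts were called. The calls for Ulk2 (0.83 to 1.27) and Becn1 (0.35 to 0.60) were each lost in 6 of 12 fits that left out 1 library, among them KO Torin1 ribo-seq replicate 1 and KO DMSO RNA-seq replicate 1 for both. Without scaling beyond library size 17 rose and 2 fell (all transcripts, 2700 higher and 1192 lower), while all transcripts had a median of 0.24. The 5′ TL (transcript leader) of the 7 that rose had a median of 381 nt (116 to 629) in the GENCODE vM21 annotation, that of the 2 that fell was 460 nt for Atg9a and 128 nt for Atg2a, and that of the 34 others had a median of 176.5 nt (33 to 578). These lengths are a description of the list, and the leader lengths of the authors' annotation were not used here.

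The second comparison set KO against ctrl cells, with the same libraries as the Torin1 comparisons, so the values of both kinds of comparison are not independent. In DMSO, 0 of 43 members passed in mRNA (0.0183% of 10924 transcripts called, 0.00915% higher and 0.00915% lower). In footprints 0 passed (0.0279% of 10757, 0.0093% higher and 0.0186% lower), and in TE 0 (0% of 10475). DESeq2 called 0 members in each, where it called 21, 3 and 0 transcripts. An unadjusted p under 0.05 was reached by 3, 3 and 1 members. Over all transcripts it was reached by 646 of 10924, 850 of 10757 and 426 of 10475. With the passage as a block 4 of 43 members passed in mRNA, where that fit called 866 of 10924 transcripts (596 higher, 270 lower). Rb1cc1 (0.41, adjusted p = 0.021) and Fnip2 (0.45, adjusted p = 0.023) were higher in KO cells, and Map1lc3a (-0.42, adjusted p = 0.047) and Nbr1 (-0.75, adjusted p = 0.00505) lower. The Nbr1 value rests on the ctrl DMSO library with the high Nbr1 level, without which the unblocked difference was 0.28 (adjusted p = 0.31).

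Under Torin1 3 members differed between the genotypes in 1 readout or more: Flcn in mRNA, and Atg9a and Ulk2 in footprints. Flcn mRNA rose in both genotypes but ended lower in KO cells, at 49.5 to 53.1 CPM against 59.0 to 66.6 CPM, with a log2 difference of -0.28 (SE 0.07, adjusted p = 0.046, where 1.96% of 11007 transcripts passed, 1.01% higher and 0.954% lower). That call was lost in 5 of the 6 fits that left out 1 library, all but ctrl Torin1 replicate 2 (-0.32 to -0.23), without scaling beyond library size (adjusted p = 0.061) and without the filter (adjusted p = 0.051). In footprints Flcn had a difference of 0.13 (SE 0.18, adjusted p = 0.75). With the passage as a block 3 more members passed in mRNA, Tfe3 higher in KO cells (0.19, adjusted p = 0.042) and Map1lc3b (-0.19, adjusted p = 0.047) and Sqstm1 (-0.14, adjusted p = 0.038) lower. The blocked fit called 4 of 43 members and 1041 of 11007 transcripts (537 higher, 504 lower).

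Atg9a (chr1:75180865-75192196, minus strand, 16 exons) had even mRNA, at 39.8, 57.7 and 58.7 CPM in ctrl DMSO, 46.1, 53.4 and 48.4 CPM in ctrl Torin1, 47.6, 52.0 and 47.9 CPM in KO DMSO, and 47.2, 49.5 and 51.7 CPM in KO Torin1. Atg9a footprints were at 34.0 and 25.9 CPM in ctrl DMSO, 23.9, 29.6 and 24.4 CPM in ctrl Torin1, 31.6, 28.0 and 35.1 CPM in KO DMSO, and 10.1, 14.8 and 18.9 CPM in KO Torin1. The 3 KO Torin1 libraries were below all 8 others. In KO cells the footprints fell with Torin1 by 1.15 on the log2 scale (SE 0.22, adjusted p = 7.6e-05) and TE by 1.16 (SE 0.22, adjusted p = 0.00026), and both calls held in every fit that left out 1 library. In ctrl cells the changes were -0.29 (adjusted p = 0.46) and -0.20 (adjusted p = 0.79). Under Torin1 the KO cells were lower than ctrl cells in footprints by -0.87 (SE 0.25, adjusted p = 0.025, where 6.03% of 10792 transcripts passed, 2.02% higher and 4.01% lower) and in TE by -0.88 (SE 0.23, adjusted p = 0.034, where 2.85% of 10509 passed, 0.59% higher and 2.26% lower). The footprint difference lost its call by DESeq2 (adjusted p = 0.078) and without ctrl Torin1 replicate 2, KO Torin1 replicate 1 or KO Torin1 replicate 2 (-1.08 to -0.65), the TE difference in 7 of 12 such fits, including these 3 (-1.09 to -0.65), and the interaction itself did not pass (-0.84, SE 0.32, adjusted p = 0.55 for footprints).

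Ulk2 (chr11:61775649-61855073, minus strand, 27 exons) differed in the other direction at low counts. Its mRNA lay between 19.6 and 25.7 CPM in all 12 libraries. Its footprints were 12 and 3 counts in ctrl DMSO, 3, 9 and 4 counts in ctrl Torin1, 8, 16 and 15 counts in KO DMSO, and 21, 11 and 19 counts in KO Torin1, or 2.17 to 4.85 CPM in ctrl cells, 3.16 to 5.21 CPM in KO DMSO, and 9.25, 5.27 and 10.9 CPM in KO Torin1. The KO Torin1 libraries were above all others. Ulk2 footprints were higher in KO than in ctrl cells under Torin1 by 1.49 (SE 0.45, adjusted p = 0.039), and rose 2.15-fold with Torin1 in KO cells (adjusted p = 0.018, lost without KO DMSO replicate 2 or KO Torin1 replicates 1 or 3), with a log2 change of -0.10 in ctrl cells (adjusted p = 0.93). The difference between genotypes had an adjusted p of 0.056 with the passage as a block and none by DESeq2, and was lost in 4 of 6 fits that left out 1 library (ctrl Torin1 replicates 1 and 3, KO Torin1 replicates 1 and 3, with 1.29 to 1.92 over the 6). In TE the block gave 3 members, Atg9a, Ulk2 (1.44, adjusted p = 0.047) and Atg2b (0.45, adjusted p = 0.042), where 541 of 10509 transcripts were called (171 higher, 370 lower). The genotype by treatment interaction passed for 0 of 43 members in footprints and in TE, where 0.113% of 10662 and 0% of 10443 transcripts passed. An unadjusted p under 0.05 was reached by 4 and 4 members, and by 731 and 599 transcripts. DESeq2 called 0 and 0 members, and 37 and 16 transcripts.

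**Figure D5:**
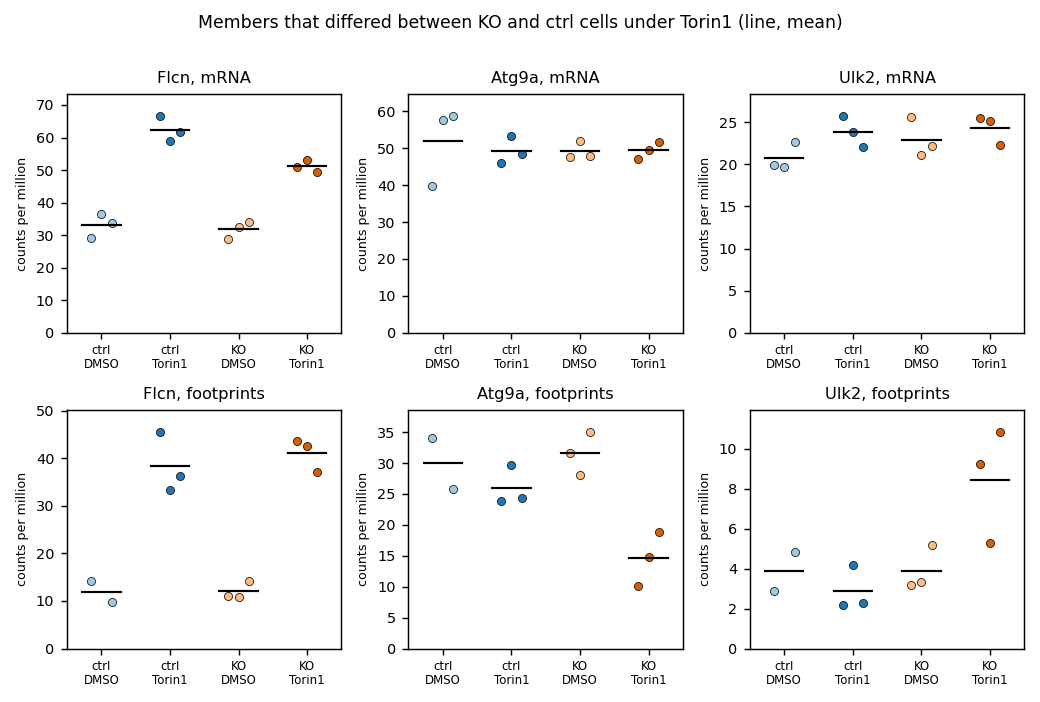
mRNA (top) and footprint level (bottom) of Flcn, Atg9a and Ulk2 in each library (y axis, CPM, from 0), by condition on the x axis; points are libraries and lines are means. Flcn mRNA is at 49.5 to 53.1 in KO Torin1 and 59.0 to 66.6 in ctrl Torin1, and in KO Torin1 the footprints of Atg9a are the lowest and those of Ulk2 the highest of the 4 conditions.

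The levels of the members in untreated ctrl cells spanned a wide range. Per kb of coding sequence, the highest mRNA levels in ctrl DMSO were those of Sqstm1 (400 ± 32.3 CPM per kb, SD, n = 3), Gabarap (267 ± 67.3) and Gabarapl2 (195 ± 24.1), followed by Map1lc3b (155 ± 14.3) and Becn1 (155 ± 9.99), which differed by less than their spread. The lowest were those of Atg4c (2.17 ± 0.165), Atg14 (4.86 ± 0.759) and Atg2a (5.72 ± 1.08). In footprints per kb, Sqstm1 (460 ± 71.1, n = 2), Gabarapl2 (448 ± 12.8) and Map1lc3b (405 ± 100) led and differed by less than their spread, and Ulk2 (1.24 ± 0.449), Atg2a (1.56 ± 0.619) and Ulk1 (1.93 ± 2.00) were the lowest. Apart from Nbr1, the ratio of mean footprint CPM to mean mRNA CPM in ctrl DMSO ran from 0.186 for Ulk2 and 0.210 for Ulk1 to 3.40 for Bnip3l. Its median was 0.788 over the 43 members, Nbr1 included. The median over 10434 transcripts was 0.885, but it used CPM by library total without TMM scaling, so the 2 medians are not on the same scale. Without the shallow ctrl DMSO ribo-seq replicate 3, in which Ulk1 had 1 count, the ratio was 0.365 for Ulk1 and 0.139 for Ulk2. Bnip3l (2.97) was then below Map1lc3b (3.06) and Atg12 (3.00). With both ribo-seq libraries the lowest ratio was that of Nbr1, 0.172, which includes the RNA-seq library described above. Further members with high ratios were then Map1lc3b (2.61), Vmp1 (2.59) and Atg12 (2.46). In KO Torin1 the highest ratio was that of Gabarapl2 (4.66) and the lowest that of Atg4d (0.115).

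A list of 32 further autophagy genes outside the 44 gave the surroundings of these calls, 28 to 30 of them being tested in each comparison. In mRNA 1 of 29 rose in ctrl cells (Smcr8, a partner of C9orf72, 1.13, SE 0.19, adjusted p = 0.007), where 2.05% of all transcripts rose. In KO cells 4 of 30 rose and none fell, where 6.23% of all transcripts rose and 3.74% fell. Smcr8 (0.76, adjusted p = 0.011), Ccpg1 (0.46, adjusted p = 0.014) and Atg16l2 (0.59, adjusted p = 0.02) were the clearest of these. In footprints Fkbp8, a mitochondrial receptor, fell in ctrl (-0.47, adjusted p = 0.048) and KO cells (-0.58, adjusted p = 0.0006). It was the 1 call among 29 in ctrl cells, where 15.6% of all transcripts passed. In KO cells 2 of 30 rose, Smcr8 (2.84-fold, adjusted p = 6e-07) and Rab7 (0.34, adjusted p = 0.016), and 3 fell, where 18.5% of all transcripts rose and 22.1% fell. In KO TE 4 of 30 rose and 1 fell, where 10.6% of all transcripts rose and 17.8% fell. Between genotypes under Torin1, Vamp8, a SNARE of autophagosome fusion, was lower in KO cells in mRNA (-1.32, SE 0.24, adjusted p = 0.016). It was the 1 mRNA call among 30 there, where 1.96% of all transcripts passed.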

How the data were processed

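Neuro-2a cells were measured by RNA-seq (12 libraries) and ribo-seq (11 libraries). Per the labels and methods, the authors removed adapters (cutadapt), aligned reads to mm10 and to 1 canonical transcript per gene (HISAT2, Bowtie2), placed ribo-seq P-sites and deposited raw counts per coding sequence for each library, beside columns of their own comparisons, which were not used here, nor were the 2 tables of their TE comparison.

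From those counts, edgeR (4.0.16, TMM scaling, quasi-likelihood F-test) was fitted to each pair of conditions over all transcripts with over 1 CPM in every library of at least 1 condition. TE was the interaction of assay and condition in 1 model, and a genotype by treatment interaction was fitted over the 4 conditions. P-values were Benjamini-Hochberg adjusted over all transcripts (threshold 0.05). The SE is the size of the log2 fold change over the square root of F. CPM values use TMM over all libraries of an assay, except where CPM by library total is stated. Counts are of reads without molecular identifiers, so precision is limited by depth and by 2 or 3 libraries per condition.

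The labels state that each replicate was a different passage of the cells, and replicate numbers were taken as passages. Deviations from the condition mean correlated between same-number libraries at 0.0361 to 0.768 in RNA-seq and -0.0288 to 0.157 in ribo-seq. Between libraries of different numbers they correlated at -0.623 to 0.456 in RNA-seq and -0.157 to 0.140 in ribo-seq. These ranges, pooled over the pairwise comparisons, overlapped in both assays. Taken singly, RNA-seq of Torin1 in KO cells did not overlap (same number 0.183 to 0.250, different -0.174 to -0.0602). Nor did ribo-seq of Torin1 in ctrl cells (0.121 to 0.157 over 2 pairs, different -0.157 to 0.0209). The other comparisons overlapped. Where DMSO libraries of both genotypes were set side by side in RNA-seq, the column names repeated, and the blocked fit took the same libraries from the Torin1 tables.

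Alternatives were the passage as a block, DESeq2 (1.42.0), no TMM scaling, no filter and leaving out each library. All members could be named; values per library were given for up to 4 called members with the smallest adjusted p in each comparison and for Ulk1, Sqstm1, Tfe3 and Flcn. From the further autophagy genes up to 3 were named per comparison. The members and lists were chosen with earlier results of these data known. Scripts were tested on simulated counts. No library pair agreed within sampling noise (mean chi-square per transcript at least 1.88).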

Additional observations from a re-analysis of the deposited data

How the results depend on the processing

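Results were refitted with the passage as a block, by DESeq2, without scaling beyond library size, without the filter, and without each library in turn. Counts of called members that moved by over 1.5 times were these. With the block, mRNA calls were 11 for Torin1 in ctrl cells, 4 between genotypes in DMSO and 4 in Torin1, footprint calls 1 and TE calls 3 for KO against ctrl in Torin1. Over all transcripts these blocked fits called 1328, 866, 1041, 776 and 541 in that order, where the main fits called 299, 2, 216, 651 and 299. By DESeq2, footprint calls were 6 for Torin1 in ctrl cells and 0 for KO against ctrl in Torin1, and TE calls 1 for Torin1 in ctrl cells and 2 for KO against ctrl in Torin1. Over all transcripts DESeq2 called 956, 422, 551 and 506 in that order, where the main fits called 1670, 651, 488 and 299. Without scaling, mRNA calls for KO against ctrl in Torin1 were 0 (also 0 without the filter), footprint calls for Torin1 in KO cells 28, and TE calls for Torin1 1 in ctrl and 19 in KO cells. Over all transcripts the fits without scaling called 200, 5298, 508 and 3892 in that order, and the mRNA fit without the filter 187. The main fits called 216, 4390, 488 and 2990. The cause was not tested. The block changed no calls of members other than those given with the results above. Leaving out 1 library gave 1 to 11 mRNA calls for Torin1 in ctrl cells, where 114 to 1465 of all transcripts were called. In KO cells it gave 9 to 19 (438 to 1465 transcripts), and for KO against ctrl in Torin1 0 to 1 (6 to 174). Leaving out 1 ctrl Torin1 library gave 6 to 8 footprint calls for Torin1 in ctrl cells (845 to 1612 transcripts). For KO against ctrl in Torin1, footprint calls were 0 to 1 (343 to 512). TE calls were 0 to 2 for Torin1 in ctrl cells (329 to 820 transcripts, without the fits that left 1 ctrl DMSO ribo-seq library). For KO against ctrl in Torin1, TE calls were 0 to 1 (178 to 312). For Nbr1 the log2 change in ctrl mRNA ran from -1.65 to 0.80, the genotype difference in DMSO from -2.17 to 0.28 in mRNA and from -0.15 to 2.22 in TE, the sign turning without the ctrl DMSO library high in Nbr1. The ribo-seq depth, lowest in a condition with 2 libraries, limits what the ctrl footprint and TE comparisons could detect for members with few footprints, such as Ulk1, Ulk2 and Atg14.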
